A study of Mus musculus with 4 samples.

Results

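The genes described here are 10 amino acid transporters of the plasma membrane and lysosome that could carry substrates into or out of intestinal crypt cells beside SLC7A5, the large neutral amino acid carrier that the study deleted. They are Slc1a4, Slc1a5, Slc38a1, Slc38a2, Slc6a9, Slc7a1, Slc6a19, Slc43a1, Slc43a2 and Slc36a1. They were chosen by symbol, with earlier results of these data known, and all 10 were found among the 27998 genes of the count matrices. The question was which of them differed between control and knockout crypt cells, and in which kinds of cell. Slc7a1 belongs to this set although its protein CAT1 carries cationic amino acids, so the word neutral does not cover it.

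The data were single cell RNA counts from live crypt cells of the mouse small intestine, sorted as positive for the epithelial marker EpCAM and negative for the leukocyte marker CD45 at 8 weeks of age. Of the 4 libraries 2 carry the label Slc7a5 fl/fl and 2 the label Slc7a5 IEC-KO (n = 2 per genotype), and they are called fl/fl-labelled and IEC-KO-labelled here. Both groups carry the floxed Slc7a5 allele, in which exon 1 is flanked by recombination sites. In the Slc7a5 IEC-KO group a Cre recombinase driven by the villin promoter removes that exon throughout the intestinal epithelium, and the Slc7a5 fl/fl littermates, housed together and matched for sex and age, were the controls. Which of the 4 mice in the records went into which library is not given, so p-values measure the spread between libraries, which may be technical. Each library held UMIs (unique molecular identifiers, each standing for 1 captured transcript) of Xist and of Y-linked genes. Xist had 8212 and 8830 UMIs in the fl/fl-labelled libraries and 31938 and 50496 in the IEC-KO-labelled ones, while Ddx3y had 657 and 623 against 335 and 466. The balance of Xist to Ddx3y UMIs thus differed between the groups of libraries, although the mice are described as matched for sex. These are totals over all cells, not scaled for depth or cell class. The sex makeup of the libraries and its part in the results were not tested.

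The targeted gene was not lower in the Paneth cells of the IEC-KO-labelled libraries. In the Paneth cells of each library, Slc7a5 had 91 and 84 UMIs with the label Slc7a5 fl/fl and 128 and 252 with the label Slc7a5 IEC-KO, a log2 fold change of 1.71 ± 0.15 (SE) with adjusted p = 5.31e-09 in edgeR's quasi-likelihood test. The counted tags lie at the 3′ end of the transcript, outside the deleted exon, so this count checks nothing about the label. Slc3a2, the heavy chain that pairs with SLC7A5 and several of its relatives, had a log2 fold change of 1.02 ± 0.07 (adjusted p = 9.69e-11). All directions below rest on the labels of the libraries.

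Amino acid transporters work as exchangers, as sodium- or proton-coupled pumps, or as facilitated carriers, and exchangers such as SLC7A5 need another transporter to refill the intracellular amino acids that they trade for large neutral ones. Crypt cells take up amino acids from the blood side, whereas enterocytes also absorb them from the gut lumen through brush border carriers. When amino acids run short, uncharged tRNA activates the kinase GCN2 and translation of the transcription factor ATF4 increases. ATF4 binds short elements in the promoters of amino acid synthesis, tRNA charging and transporter genes.

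Cells were divided into classes by the share of their UMIs that fell on marker genes, none of which is a transporter. Paneth cells, the antimicrobial secretory cells of the crypt base, were those with at least 30% of UMIs on the 13 genes whose symbol starts with Defa, the alpha-defensins. All other classes had under 20%. This gave 2020 and 1950 Paneth cells in the fl/fl-labelled libraries and 2019 and 2336 in the IEC-KO-labelled ones. The 6 Paneth markers that the gate did not use (such as Lyz1 and Mmp7) took a median of 5.21 to 7.42% of UMIs in these cells and 1.22 to 1.84% in goblet cells. In cells with 20 to 30% alpha-defensin UMIs, which entered no class, the same markers took 4.37 to 5.94%. Those cells numbered 120 and 89 in the fl/fl-labelled libraries and 1305 and 1218 in the IEC-KO-labelled ones. The gate thus left out more cells with such marker levels with the label Slc7a5 IEC-KO. Goblet cells, which secrete mucus, numbered 852 and 660 against 3651 and 3466. Cycling cells numbered 304 and 239 against 573 and 543, and enterocytes, the absorptive cells, 119 and 93 against 335 and 269. The remaining crypt cells, which passed no marker gate, numbered 193 and 163 against 1931 and 1676. Tuft cells (14 to 110 per library) and enteroendocrine cells (5 to 80) were few. Many of them passed 2 gates or were marked as doublets (2 cells in 1 barcode). Among tuft cells these were 11 of 14 and 12 of 18 against 50 of 110 and 37 of 75. Among enteroendocrine cells they were 10 of 11 and 3 of 5 against 42 of 80 and 34 of 61.

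The libraries differed in depth with the label. They held 87922473 to 127094508 UMIs each, but a Paneth cell had a median of 46965 and 52851.5 UMIs in the fl/fl-labelled libraries and of 13782 and 20159 in the IEC-KO-labelled ones. Depth and label thus went together and cannot be told apart. Within 5 percentage points of the Paneth gate lay 66 and 55 cells below and 115 and 82 above it with the label Slc7a5 fl/fl, and 714 and 649 below and 810 and 825 above with the label Slc7a5 IEC-KO. Pairs of libraries shared 14 to 132 cell barcodes. Leukocyte markers were near 0 in the Paneth cells: 9 of the 11 listed genes were in the matrices, Ptprc had 3 to 12 UMIs per library, and Cd3e, Cd3g and Cd8a had none. Lyz2, a lysozyme of macrophages, was the exception, at 36.7 and 28.8 against 15.4 and 12.4 per 1e6 UMIs, and reads of its near relative Lyz1, a Paneth marker, could be shared with it.

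Promoter sequences were available from RefSeq (build GRCm38.p6) for 8 of the 10 genes, in 12 entries of 250 bases before to 50 after a start site. They are shown because ATF4 binds elements with the core TGATGNAA, which can be searched for in the promoters of the genes that differed. The search took both strands (TTNCATCA on the other), and TGATGCAA is a case of the same core. Of all 32851 promoters in the table, 3.97% held TGATGNAA and 0.895% held TGATGCAA. Of the 12 entries 1 held either, that of Slc1a4, whose match began 4 bases before the start site. Slc1a5 and Slc38a1, both higher in Paneth cells of the IEC-KO-labelled libraries, had no entry and were not searched. The windows below run from 100 bases before the start site to 4 bases after it, with matches to TGATGNAA or to the E-box CACGTG in capitals. The first 4 belong to genes that were higher in Paneth cells of the IEC-KO-labelled libraries, and the last to a gene that did not pass the test there. Slc6a9 had 3 entries and Slc7a1 had 2, and 1 of each is shown.
Slc1a4, chr11:20332710-20332813, minus strand: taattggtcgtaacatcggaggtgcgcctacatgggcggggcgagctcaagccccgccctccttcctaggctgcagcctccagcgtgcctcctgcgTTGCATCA
Slc38a2, chr15:96699725-96699828, minus strand: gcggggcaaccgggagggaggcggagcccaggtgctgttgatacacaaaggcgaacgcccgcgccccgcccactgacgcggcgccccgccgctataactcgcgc
Slc6a9, chr4:117835158-117835261, plus strand: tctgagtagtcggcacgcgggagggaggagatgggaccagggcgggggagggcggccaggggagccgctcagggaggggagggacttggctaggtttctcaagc
Slc7a1, chr5:148399901-148400004, minus strand: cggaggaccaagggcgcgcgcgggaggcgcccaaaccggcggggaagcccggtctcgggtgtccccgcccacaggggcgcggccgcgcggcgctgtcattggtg
Slc36a1, chr11:55204240-55204343, plus strand: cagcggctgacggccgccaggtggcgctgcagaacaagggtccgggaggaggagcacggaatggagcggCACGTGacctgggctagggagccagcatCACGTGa
The E-box, which reads the same on both strands, was in 7.15% of all promoters and in those of Slc36a1 and Slc43a1. Only these entries were searched, and a match is a description, not a binding site.

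In Paneth cells, 6 of the 10 transporters were higher in the IEC-KO-labelled libraries and 2 were lower, in a test across 12492 genes of which 20.2% were higher and 19.8% lower. The 6 were the exchangers Slc1a4 and Slc1a5, the sodium-coupled carriers Slc38a1, Slc38a2 and Slc6a9, and the cationic carrier Slc7a1. The 2 were Slc6a19 and Slc43a2. Values are CPM (counts per 1e6 counted UMIs) of the UMIs summed over the Paneth cells of each library, scaled by the trimmed mean of M-values (TMM), and tests are edgeR's quasi-likelihood test with Benjamini-Hochberg adjustment over all genes tested.

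Slc1a4 (chr11:20302180-20332713, minus strand, GRCm38) encodes ASCT1, an exchanger of alanine, serine and cysteine. Its level was 16.8 and 14.7 CPM in the fl/fl-labelled libraries and 30.2 and 30.2 in the IEC-KO-labelled ones, from 1191 to 1324 and 1130 to 2037 UMIs. Both knockout libraries lay above both controls, with a log2 fold change of 0.94 ± 0.07 (adjusted p = 1.3e-09). Slc1a5 (chr7:16781340-16798274, plus strand) encodes ASCT2, which exchanges neutral amino acids and supplies glutamine, the counter-substrate of SLC7A5. It stood at 26.8 and 26.3 against 51.9 and 47.7 CPM. It rose by 0.91 ± 0.07 on the log2 scale (adjusted p = 7.61e-10), and the groups were far apart relative to their spread.

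Slc38a1 (chr15:96571418-96642913, minus strand) and Slc38a2 (chr15:96687392-96699730, minus strand) lie beside each other on chromosome 15 and encode SNAT1 and SNAT2, which bring in small neutral amino acids such as glutamine and alanine with sodium. Slc38a1 had 9.03 and 9.01 against 15.3 and 14.7 CPM, a log2 fold change of 0.73 ± 0.08 (adjusted p = 7.88e-08). Slc38a2, a known ATF4 target, had 11.4 and 12.3 against 18.4 and 16.3 CPM. Its log2 fold change of 0.54 ± 0.08 (adjusted p = 9.58e-06) was the smallest of the 6, and it was the only one of them whose call was lost under an alternative processing, that of cells thinned to 2000 UMIs each.

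Slc6a9 (chr4:117834506-117875198, plus strand) encodes the glycine transporter GLYT1, and had the largest difference of the 10. It stood at 3.62 and 3.47 CPM in the fl/fl-labelled libraries and at 9.90 and 10.3 in the IEC-KO-labelled ones. The log2 fold change was 1.52 ± 0.09 (adjusted p = 1.3e-11), with no overlap between the groups. Slc7a1 (chr5:148327410-148399904, minus strand), whose protein CAT1 takes up arginine and lysine, had 11.2 and 10.6 against 22.7 and 24.3 CPM. It rose by 1.11 ± 0.07 (adjusted p = 9.51e-11).

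The genes of brush border uptake and of facilitated transport went the other way or did not pass. Slc6a19 (chr13:73679745-73704865, minus strand) encodes B0AT1, the main neutral amino acid carrier of the enterocyte brush border. It had 2.46 and 2.58 CPM (194 and 208 UMIs) against 0.776 and 1.35 CPM (29 and 91 UMIs), so that both knockout libraries lay below the controls but well apart from each other. The log2 fold change was -1.16 ± 0.18 (adjusted p = 2.97e-05), and it was -1.69 without the second IEC-KO-labelled library and -0.90 without the first. The enterocyte marker genes took a median of 0.127 and 0.119% of a Paneth cell's UMIs in the fl/fl-labelled libraries. In the IEC-KO-labelled ones they took 0.0642 and 0.0747%. The part of enterocyte RNA in the falls of Slc6a19 and Slc43a2 was not tested.

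LAT3 and LAT4, encoded by Slc43a1 (chr2:84838850-84863594, plus strand) and Slc43a2 (chr11:75531694-75577575, plus strand), are facilitated carriers of branched-chain and other large neutral amino acids, the substrates of SLC7A5. Slc43a2 had 15.9 and 16.8 against 10.6 and 12.3 CPM, a log2 fold change of -0.50 ± 0.08 (adjusted p = 3.68e-05) that turned to 0.12 when sums were scaled by library size alone. Slc43a1 stood at 2.29 and 2.29 against 2.06 and 2.1 CPM and did not pass the test, at -0.13 ± 0.14 (adjusted p = 0.486, and 0.49 on the log2 scale by library size). Slc36a1 (chr11:55204350-55236330, plus strand) encodes PAT1, a proton-coupled carrier of small amino acids at the lysosome and brush border. It had 2.34 and 2.29 against 1.85 and 1.95 CPM, did not pass at -0.27 ± 0.14 (adjusted p = 0.138), and stood at 0.35 by library size.

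**Figure D1:**
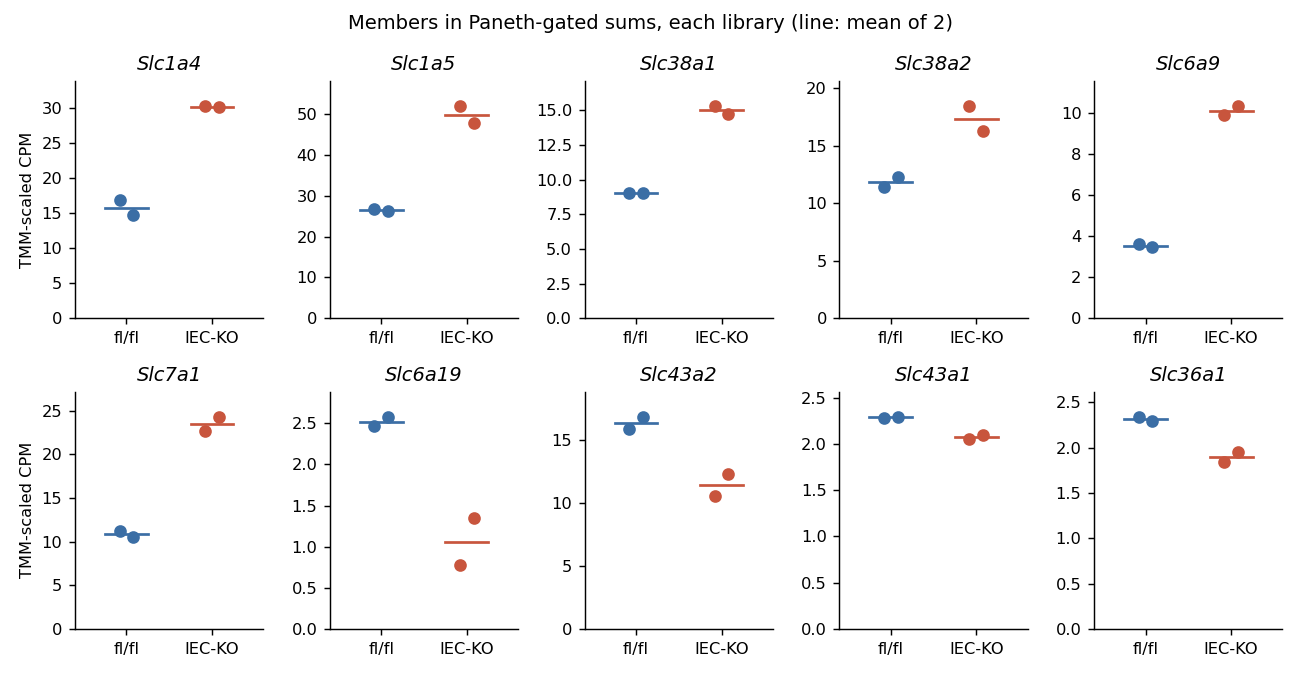
Level of each transporter (TMM-scaled CPM) in the summed Paneth cells of each of the 4 libraries. There is 1 point per library, with a bar at the mean of the 2 libraries of a genotype. The 2 IEC-KO-labelled libraries lie above both controls for Slc1a4, Slc1a5, Slc38a1, Slc38a2, Slc6a9 and Slc7a1. They lie below both for Slc6a19, Slc43a2, Slc43a1 and Slc36a1, of which Slc43a1 and Slc36a1 did not pass the test. The signs of Slc43a2, Slc43a1 and Slc36a1 turn when sums are scaled by library size alone. The share of all genes whose libraries separate in this way was not computed.

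Scaling set the zero line of these differences. By library size alone, without TMM, the median gene of the Paneth sums shifted by 0.62 on the log2 scale and 8795 genes passed as higher against 454 as lower. The alpha-defensins, which take a median of 41.1 and 43.9% of a Paneth cell's UMIs in the fl/fl-labelled libraries and 36.1 and 36.5% in the IEC-KO-labelled ones, differed in the same libraries, and their part in the shift was not tested. Slc6a19 was lower under both scalings (-0.54 by library size), and Slc43a2, Slc43a1 and Slc36a1 lay below the median gene under both.

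Per cell and without any scaling, most of the 6 risers overlapped between groups, beside the lower UMI totals of Paneth cells in the IEC-KO-labelled libraries. Per 1000 Paneth cells, Slc6a9 had 141 and 144 UMIs against 183 and 298 and was the one riser whose libraries did not overlap. Slc1a4 had 655 and 611 against 560 and 872, and Slc1a5 had 1044 and 1090 against 961 and 1381. In both, 1 knockout library fell below the controls and 1 lay above them. Slc38a1 (352 and 373 against 283 and 426), Slc38a2 (443 and 509 against 341 and 471) and Slc7a1 (439 and 437 against 420 and 702) overlapped too.

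The other 4 transporters were lower per cell in both IEC-KO-labelled libraries, with no overlap. So were the median UMI totals of a Paneth cell, at 46965 and 52851.5 against 13782 and 20159. The share of all genes that did not overlap per cell was not computed. Slc6a19 had 96.0 and 107 UMIs per 1000 Paneth cells against 14.4 and 39.0, and Slc43a2 had 620 and 697 against 196 and 357. Slc36a1 stood at 91.1 and 94.9 against 34.2 and 56.5, and Slc43a1 at 89.1 and 94.9 against 38.1 and 60.8. Whether a cell held less RNA or less of it was captured cannot be told apart from counts.

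**Figure D2:**
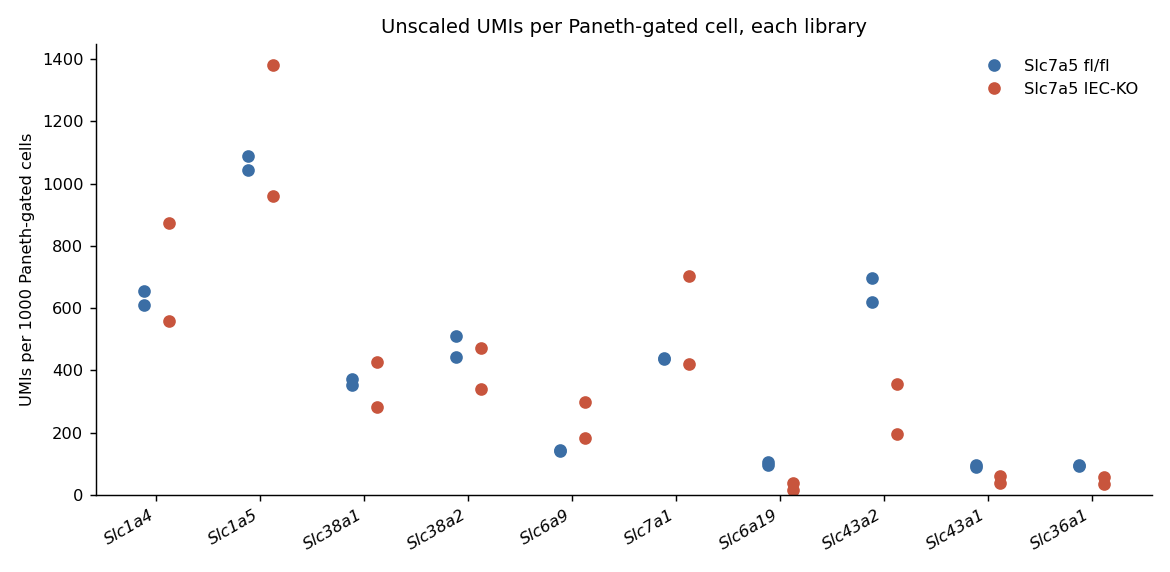
UMIs of each transporter per 1000 Paneth cells, unscaled, 1 point per library. Of the 6 genes that were higher by CPM only Slc6a9 has both IEC-KO-labelled libraries above both controls. Slc6a19, Slc43a1, Slc43a2 and Slc36a1 have both below, where the median UMI total of a Paneth cell was also lower.

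With every cell thinned to 3843 UMIs, the lowest total of any cell, the share of Paneth cells with a Slc1a4 UMI was 5.00% (exact 95% binomial interval 4.09 to 6.04) and 4.87% (3.96 to 5.92) in the fl/fl-labelled libraries. It was 13.8% (12.3 to 15.3) and 13.4% (12 to 14.8) in the IEC-KO-labelled ones. The intervals, which cover counting error only, did not overlap between groups. A share at 1 fixed total follows library size, by which 70.4% of the 12492 genes tested in Paneth sums passed as higher. The share of all genes whose intervals did not overlap was not computed. In enterocytes the share of cells with a Slc1a4 UMI was 0.840 and 1.08% against 3.88 and 4.83%, below the Paneth share in every library. The fl/fl-labelled shares rest on only 119 and 93 enterocytes. No interval is given for the enterocyte shares, so whether they lie apart from the Paneth shares beyond counting error is not shown. Unthinned, the Paneth shares were 46.5 and 44.5% against 40.02 and 53.6%, and the enterocyte shares 5.04 and 5.38% against 4.78 and 10.8%, at median depths of 10324 and 11075 against 5219 and 7348 UMIs. For Slc1a5 the thinned Paneth shares were 8.51 and 8.05% against 22.1 and 21.1%, and for Slc6a9 1.49 and 0.872% against 5.00 and 5.78%.

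Goblet cells showed the same 6 transporters higher in the IEC-KO-labelled libraries, among 11284 genes of which 11.9% were higher and 11.2% lower. Slc1a4 had 9.17 and 8.30 CPM against 23.1 and 24, a log2 fold change of 1.43 ± 0.11 (adjusted p = 4.33e-09), and Slc6a9 had 6.73 and 7.56 against 20.8 and 19.1, at 1.48 ± 0.12. Slc7a1 (28.7 and 26.8 against 54.2 and 59.9 CPM), Slc1a5 (61.2 and 59.2 against 110 and 101) and Slc38a2 (27.6 and 26.2 against 41.5 and 46.9) rose by 1.04 ± 0.09, 0.80 ± 0.07 and 0.72 ± 0.09. Slc38a1 rose least, from 37.5 and 35.2 to 45.3 and 45.8 CPM, at 0.32 ± 0.08 (adjusted p = 0.00438), and its call held in 10 of 14 alternatives. It was lost in DESeq2, without the second fl/fl-labelled library, with 1 lower UMI limit for all libraries and with stricter gates. None of the 6 overlapped between groups, and the share of all genes that did not overlap was not computed. Slc43a2 was lower at -0.27 ± 0.08 (35.6 and 36.7 against 30.5 and 29.2 CPM, adjusted p = 0.0165). Slc36a1 was also lower, at -0.56 ± 0.18 (6.01 and 6.94 against 4.13 and 4.53 CPM, adjusted p = 0.0255). The enterocyte marker genes took a median of 0.166 and 0.167% of a goblet cell's UMIs against 0.102 and 0.107%. The part of enterocyte RNA in the falls of Slc43a2 and Slc36a1 was not tested. No member passed as lower in DESeq2 or without either fl/fl-labelled library, and 1 did without the first IEC-KO-labelled one. Slc6a19 (-0.36, adjusted p = 0.51) and Slc43a1 (-0.03, adjusted p = 0.938) did not pass.

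In cycling cells, 3 of 9 tested transporters were higher and none lower, in a test across 9810 genes of which 3.94% were higher and 2.02% lower. Slc1a4 stood at 7.04 and 5.85 CPM (27 and 19 UMIs) against 21.5 and 23.8 (87 and 125 UMIs), at 1.81 ± 0.21 on the log2 scale (adjusted p = 4.26e-06). Slc6a9 had 3.13 and 2.46 CPM (12 and 8 UMIs) against 9.15 and 11.1 (37 and 58 UMIs), at 1.84 ± 0.31 (adjusted p = 0.000497). Slc7a1 had 38.9 and 42.2 against 59.4 and 62.3 CPM, at 0.59 ± 0.11 (adjusted p = 0.00152). The call of Slc7a1 was lost in DESeq2 and in thinned cells, and that of Slc6a9 with stricter gates. In none of the 3 did the groups overlap, and the share of all genes without overlap was not computed. Slc1a5 had 51.4 and 53.3 against 61.3 and 69.0 CPM and did not pass (0.32, adjusted p = 0.0822), nor did Slc38a2 (0.34, adjusted p = 0.125), Slc38a1 (0.13, adjusted p = 0.686), Slc43a2 (0.28, adjusted p = 0.414), Slc43a1 (0.56, adjusted p = 0.485) or Slc36a1 (-0.27, adjusted p = 0.805). Slc6a19, with 3 to 7 UMIs per library, was too low to test.

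Enterocytes are the cells in which the brush border carriers work, and there 1 of 9 tested transporters passed, among 7367 genes of which 1.68% were higher and 0.692% lower. It was Slc1a4, with 4.36 and 4.30 CPM (6 and 5 UMIs) against 10.2 and 16.5 (20 and 36 UMIs), at 1.62 ± 0.43 (adjusted p = 0.0479). The call held in 5 of the 12 alternatives that tested the gene. It was lost without either fl/fl-labelled library, without the second IEC-KO-labelled one, in DESeq2, with stricter gates, with doublets left out and with the replicate number as a block. Slc6a19 had 24 and 30.1 CPM (33 and 35 UMIs) against 15.3 and 20.1 (30 and 44 UMIs). Both knockout libraries lay below the controls, but the difference of -0.59 ± 0.26 did not pass (adjusted p = 0.326). Slc43a2 had 88.7 and 89.4 against 92.6 and 80.5 CPM, with the controls between the knockout libraries (-0.04, adjusted p = 0.938). Slc1a5 (0.81) and Slc6a9 (1.66) each had adjusted p = 0.0851, and Slc7a1 (0.60) had 0.281. Slc38a1 (0.80, adjusted p = 0.299), Slc38a2 (-0.10, adjusted p = 0.908) and Slc36a1 (-0.44, adjusted p = 0.704) did not pass either, and Slc43a1 had 2 or 3 UMIs per library. With 816 enterocytes in all, these sums were small.

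In the remaining crypt cells, 6 of 10 transporters were higher and none lower, and they were again Slc1a4, Slc1a5, Slc38a1, Slc38a2, Slc6a9 and Slc7a1, in a test across 10568 genes of which 10% were higher and 10.6% lower. Slc6a9 had 13 and 7 UMIs against 214 and 280 (5.49 and 3.17 against 17.1 and 18.3 CPM), at 2.02 ± 0.27 on the log2 scale. Slc1a4 had 18.2 and 8.60 against 42.0 and 40.9 CPM, at 1.61 ± 0.18, with the controls further from each other than the knockout libraries. Paneth RNA moved with the label in these cells: alpha-defensins took 8.29 and 8.73% of their UMIs against 10.02 and 10.4%, and the 6 other Paneth markers 27482 and 24840 against 38832 and 35318 per 1e6 UMIs. Its part in the differences was not tested. Slc7a1 (1.2 ± 0.15), Slc1a5 (0.93 ± 0.11), Slc38a1 (0.71 ± 0.15) and Slc38a2 (0.50 ± 0.14) had adjusted p of 0.00712 or less. Slc43a1 (0.70, adjusted p = 0.2), Slc36a1 (0.90, adjusted p = 0.147), Slc43a2 (0.06, adjusted p = 0.854) and Slc6a19 (-0.47, adjusted p = 0.648) did not pass. In tuft cells none of 6 tested transporters passed, in a test in which 1.63% of 4486 genes were higher and 1.43% lower and 625 genes had an unadjusted p under 0.05. The nearest were Slc1a5 (5 and 12 UMIs against 54 and 64, adjusted p = 0.0725) and Slc7a1 (2 and 5 against 29 and 37, adjusted p = 0.0949). Slc1a4 had 1 and 4 UMIs against 16 and 21 (adjusted p = 0.361), and Slc38a1, Slc38a2 and Slc43a2 had adjusted p of 0.431 to 0.889. No other tool or alternative processing was run in the remaining cells or in tuft cells.

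**Figure D3:**
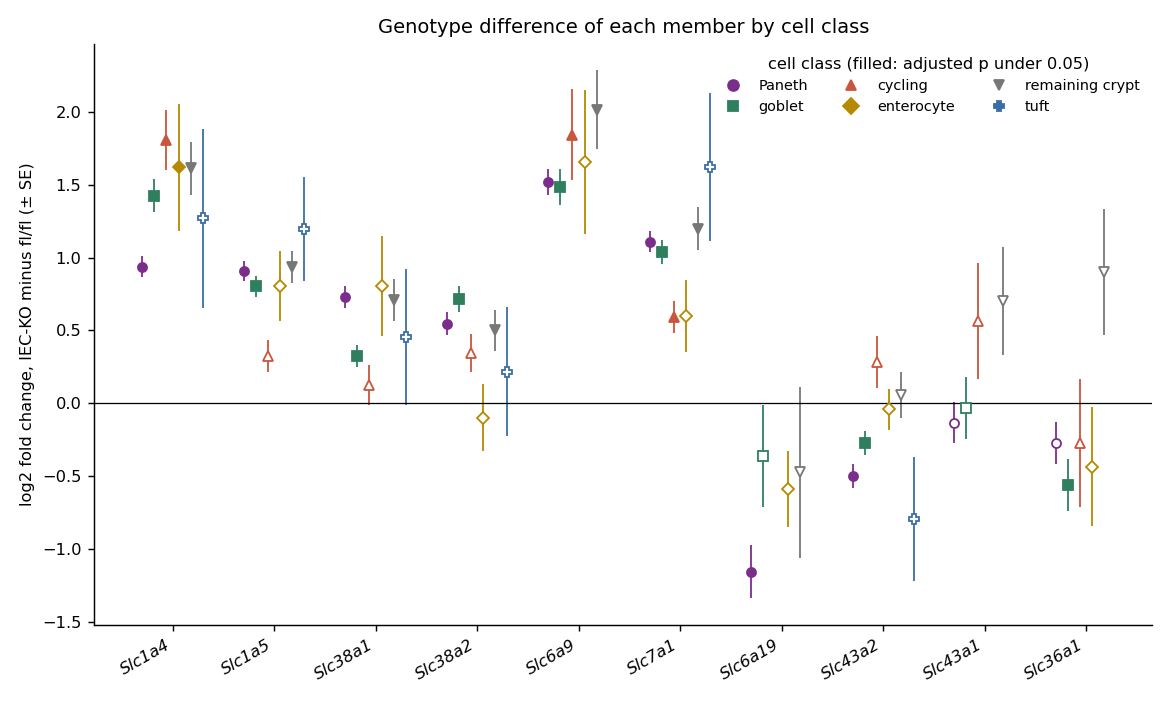
Log2 fold change (IEC-KO-labelled libraries over the fl/fl-labelled ones, TMM scaling) of each transporter in each cell class, with bars of 1 standard error and filled points where adjusted p is under 0.05. Slc1a4, Slc6a9 and Slc7a1 are higher in Paneth, goblet, cycling and remaining cells, and the points of Slc43a2, Slc43a1 and Slc36a1 in Paneth cells change sign when sums are scaled by library size alone.

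Every class held some alpha-defensin UMIs, which measure how much Paneth RNA its barcodes could hold. Scaled by the alpha-defensins that each class held, the Paneth profile would make up 20.3 to 20.7% of the Slc1a4 level of goblet cells in the fl/fl-labelled libraries and 19.0 to 22.0% in the IEC-KO-labelled ones. The same share was 21.1 to 22.7% and 18.7 to 21.7% in cycling cells, and 30.2 to 34.1% and 30.6 to 32.0% in enterocytes. For Slc1a5 it was at most 8.30% in goblet cells, 4.45 to 4.61% against 11.3 to 11.9% in cycling cells and 10.5 to 14.2% against 16.4 to 23.0% in enterocytes. For Slc7a1 it was at most 7.10% in goblet cells. In the remaining cells the share was higher with the label Slc7a5 IEC-KO for each of the 6 risers. There it was 6.75 to 7.61% against 16.6 to 17.7% for Slc1a5, 4.58 to 5.92% against 12.6 to 12.8% for Slc38a1, and 7.08 to 7.68% against 16.6 to 17.3% for Slc7a1. The part of such RNA in the genotype differences was not tested. Cells with 20 to 30% alpha-defensin UMIs, kept out of all classes, numbered 120 and 89 against 1305 and 1218. In a test of these cells, chosen after seeing the data, 5 of 9 transporters were higher where 5.81% of 9902 genes were, and none was lower where 4.62% were. They were Slc1a5 (0.91), Slc38a1 (0.75), Slc38a2 (0.62), Slc6a9 (1.01) and Slc7a1 (0.91), while Slc1a4 stood at 0.39 ± 0.16 (adjusted p = 0.115). Of the 5 calls 1 was left without the first fl/fl-labelled library, 2 in DESeq2 and none in thinned cells.

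The genotype difference itself differed between classes for some transporters. Between Paneth and goblet cells, with library as a block, 8.33% of 12265 genes had a larger log2 difference in Paneth cells and 8.17% a smaller one. Slc38a1 was among the first, by 0.40 ± 0.09 (adjusted p = 0.000269), with 0.73 in Paneth and 0.32 in goblet cells. Slc1a4 was among the second, by -0.50 ± 0.13 (adjusted p = 0.00122), with 0.94 and 1.43. Neither passed without the first fl/fl-labelled library, and by library size alone, which shifts the median gene by 0.67, the value of Slc1a4 turned to 0.17. The other 8 did not pass, the nearest being Slc6a19 (-0.84 ± 0.34, adjusted p = 0.0683) and Slc43a2 (-0.22, adjusted p = 0.0908).

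Between Paneth and cycling cells, 6.99% of 11927 genes had a larger difference in Paneth cells and 9.68% a smaller one. Slc1a5 (0.54 ± 0.11, adjusted p = 0.000463), Slc38a1 (0.57 ± 0.14, adjusted p = 0.00377) and Slc7a1 (0.49 ± 0.12, adjusted p = 0.00342) were larger in Paneth cells. Slc1a4 (-0.91 ± 0.21, adjusted p = 0.00178) and Slc43a2 (-0.81 ± 0.18, adjusted p = 0.000842) were smaller, meaning for Slc43a2 lower in Paneth cells and not past the threshold in cycling cells. By library size alone the median gene shifts by 0.68 and neither of these 2 passed as smaller. Without the second fl/fl-labelled library, 1 of the 3 larger differences still passed, that of Slc1a5.

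Levels were compared between classes within each genotype, and these comparisons hung on the scaling. Alpha-defensins fill a large part of a Paneth cell's UMIs, and their part in this was not tested. Against goblet cells, 7 transporters were higher and 1 lower in Paneth cells of the fl/fl-labelled libraries with TMM, and 1 higher and 8 lower by library size, where the median gene shifts by -1.77 and 90.3% of all genes were lower. With the label Slc7a5 IEC-KO the counts were 6 and 1 with TMM, and 1 and 8 by library size. With TMM 26.4% of 12371 genes were higher and 26.4% lower in the first comparison, and 25.5% and 27.3% of 11910 in the second. In the next 2 paragraphs a class is called higher or lower only where this held under every scaling run. Levels in CPM are on a TMM scale computed jointly over all classes, and log2 differences come from the fit of the 2 classes compared.

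Slc1a4 was higher in Paneth cells than in goblet cells, cycling cells and enterocytes, in both genotypes and under all scalings. Its level there was 44.8 ± 4.22 CPM (SD, n = 2) in the fl/fl-labelled libraries and 83.6 ± 0.24 in the IEC-KO-labelled ones. Goblet cells had 8.45 ± 0.65 and 23.0 ± 0.68, cycling cells 4.89 and 16.8, and enterocytes 4.02 and 12.1. Against goblet cells the log2 difference was 2.30 ± 0.10 and 1.79 ± 0.06, and by library size 0.52 and 0.69. Against cycling cells it was 3.11 and 2.19 (by library size 0.95 and 0.76) and against enterocytes 3.52 and 2.69 (1.56 and 1.49).

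Slc6a19 and Slc43a2 were lower in Paneth cells than in enterocytes under all scalings. Slc6a19 had 25.1 ± 3.97 and 16.0 ± 2.91 CPM (SD, n = 2) in enterocytes and 7.15 ± 0.21 and 2.94 ± 1.11 in Paneth cells, a log2 difference of -1.77 ± 0.24 with the label Slc7a5 fl/fl and -2.50 ± 0.27 with the label Slc7a5 IEC-KO. Slc43a2 had 82.7 ± 0.36 and 78.6 ± 8.78 CPM in enterocytes and 46.4 ± 1.80 and 31.7 ± 3.45 in Paneth cells, at -0.80 ± 0.12 and -1.38 ± 0.11. With TMM, 24.5% and 26% of all genes tested were higher in Paneth cells than in enterocytes in the 2 genotypes and 22.3% and 27.4% lower, and of the transporters 6 and 7 were higher and 2 and 2 lower. Slc38a1 was lower in Paneth than in goblet cells, at -0.56 ± 0.07 and -0.18 ± 0.06, with 35.1 and 44.4 CPM in goblet cells.

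The other transporters had orders that changed with the scaling or whose neighbours lay close. Slc7a1 had 30.9 ± 1.46 CPM in Paneth and 30.8 ± 1.71 in cycling cells of the fl/fl-labelled libraries, which did not differ beyond their spread, then 26.8 ± 1.53 in goblet cells, and 17.6 in enterocytes. With the label Slc7a5 IEC-KO it stood at 64.9 ± 3.07 in Paneth, 55.6 ± 4.13 in goblet, 48.8 ± 5.58 in remaining and 45.2 ± 1.53 in cycling cells. The libraries of the remaining cells overlapped with those of goblet cells and of cycling cells, so these are not ranked. On the joint TMM scale only, Slc1a5 was lowest in enterocytes (18.1 and 31.2 CPM). It stood at 75.3 and 138 in Paneth cells and 58.2 and 103 in goblet cells. Relative to its level, and again on that scale only, Slc38a2 varied least over the classes. It ran from 22.8 to 33.6 CPM with the label Slc7a5 fl/fl and from 26.3 to 48.0 with the label Slc7a5 IEC-KO. Slc6a9 stood at 10.1 and 28.0 CPM in Paneth, 6.90 and 19.4 in goblet and 2.12 and 7.51 in cycling cells. Slc36a1 was at 10.5 ± 2.40 and 7.44 ± 4.60 in enterocytes and 6.56 and 5.26 in Paneth cells, a pair that overlapped with the label Slc7a5 IEC-KO. Slc43a1 had 6.49 and 5.76 CPM in Paneth and 3.75 and 3.70 in goblet cells.

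**Figure D4:**
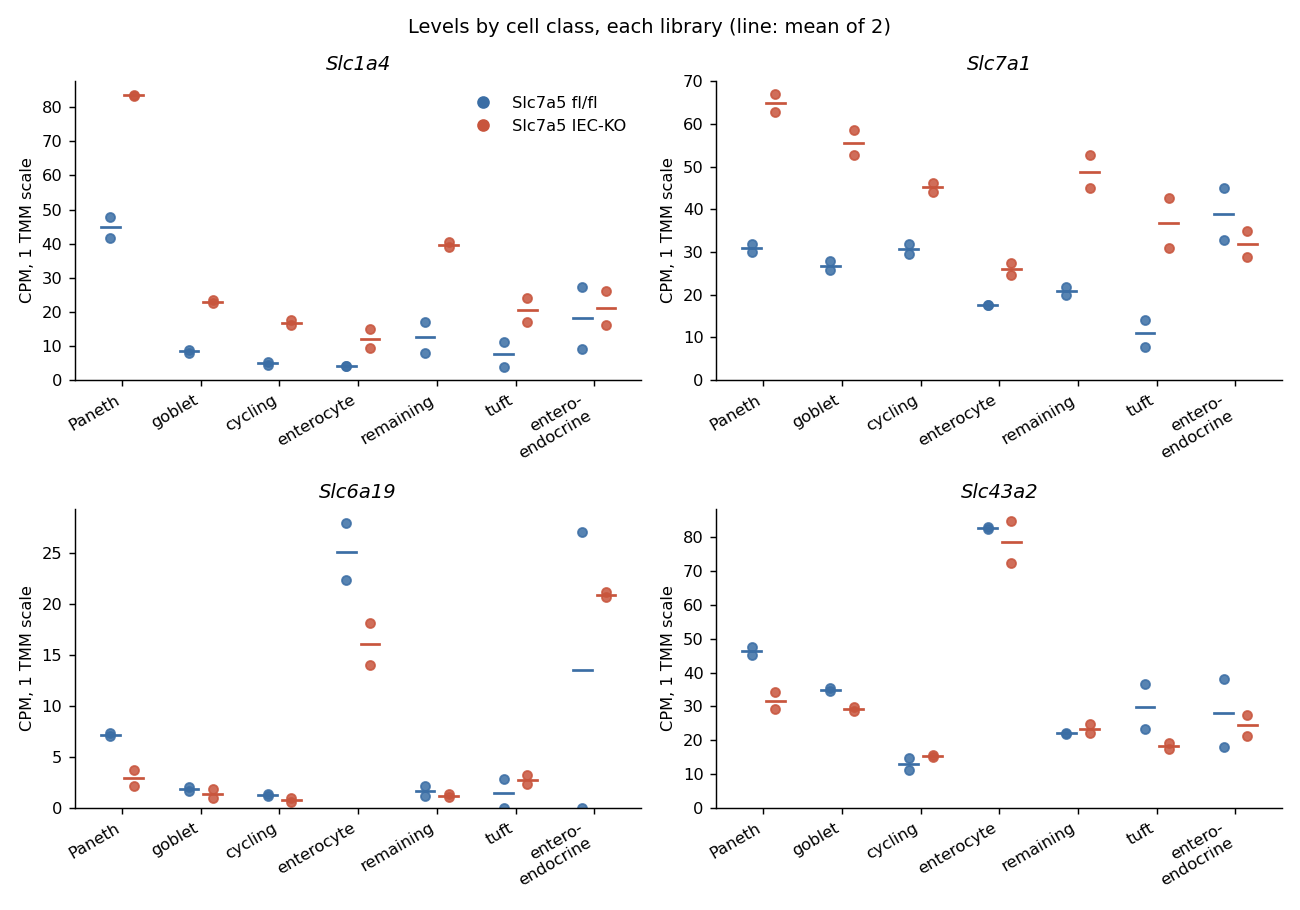
Level of transporters (CPM on a TMM scale joint to all classes) by cell class, 1 point per library. Slc1a4 is highest in Paneth cells of every library, and Slc6a19 and Slc43a2 are higher in enterocytes than in Paneth cells of every library.

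Against cycling cells the transporters in Paneth cells were 8 higher and 0 lower with the label Slc7a5 fl/fl, and 10 and 0 with the label Slc7a5 IEC-KO, where 30.6% and 27.7% of all genes were higher and 28.8% and 28% lower. By library size the same counts were 1 and 6, and 2 and 4, where 1.17% and 1.98% of all genes were higher and 87.5% and 88.0% lower. The plot of both scalings sets them side by side for each transporter.

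**Figure D5:**
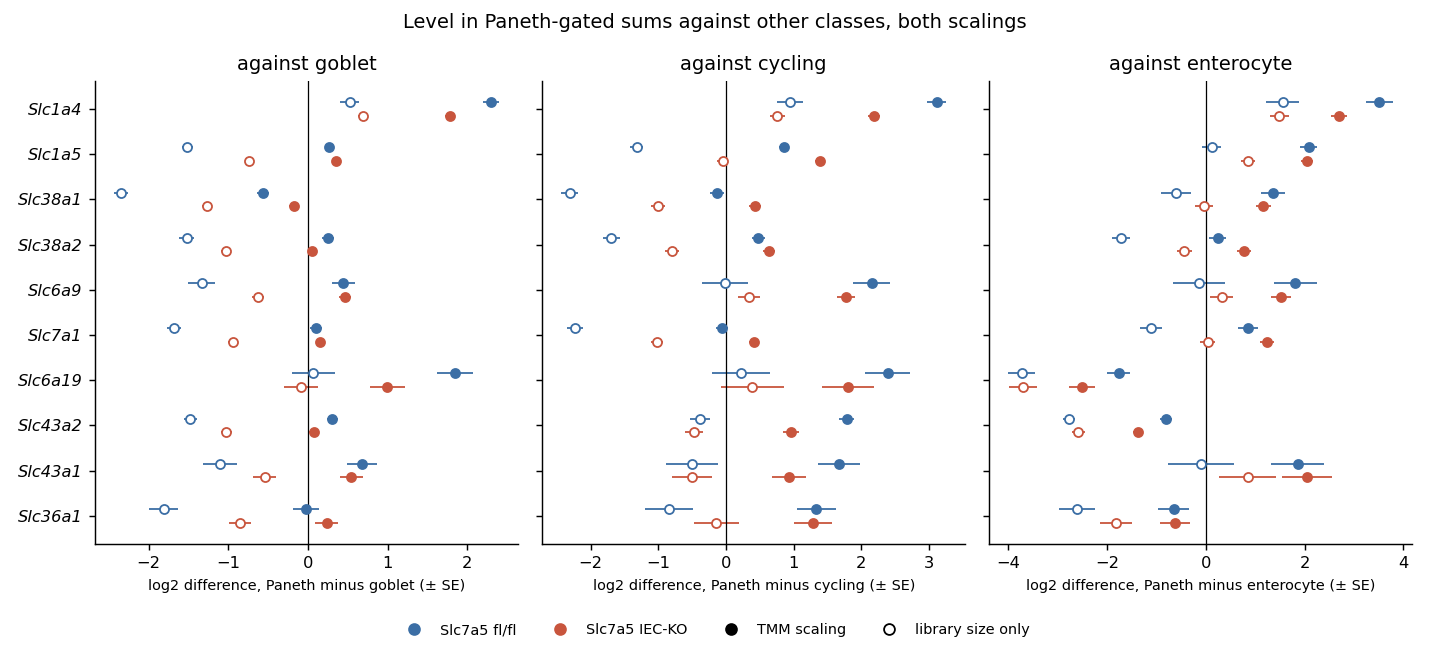
Log2 difference of the level in Paneth cells from that in goblet cells, cycling cells and enterocytes, for each transporter and genotype, with TMM scaling (filled points) and by library size alone (open points) and bars of 1 standard error. Slc1a4 is above 0 in all comparisons under both scalings, and many others lie on different sides of 0 under the 2 scalings.

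Among 48 other amino acid transporters 26 could be tested in Paneth cells, of which 6 were higher, 12 lower and 8 did not pass, where 20.2% of all genes were higher and 19.8% lower. They had a median log2 fold change of -0.29 beside 0.64 for the 10 genes above and -0.00 for all genes. Slc7a3, a relative of Slc7a1 that carries cationic amino acids, had 3 and 0 UMIs against 142 and 253, a ratio of 309 relative to total UMIs (95% interval 105 to 1505, counting error only). This ratio is by library size, and the TMM-scaled log2 fold change was 7.51, which with so few control UMIs depends on the fit's prior count. Slc7a2, another cationic carrier, had 9 and 9 against 23 and 30 UMIs and a log2 fold change of 2.16. Slc7a11, the cystine and glutamate exchanger, had 79 and 98 against 201 and 290 UMIs, at 2.1. The next was Slc7a5, given above. The largest falls were those of Slc7a15 (73 and 76 against 7 and 21 UMIs, -1.81), Slc7a9 (549 and 543 against 81 and 204, -1.35), Slc15a1 (214 and 196 against 31 and 82, -1.27) and Slc7a8 (177 and 209 against 33 and 75, -1.24). Slc7a9 is the cystine exchanger of the brush border, and Slc15a1 encodes the peptide carrier PEPT1 there. Slc7a8 encodes LAT2, a neutral amino acid exchanger that pairs with the product of Slc3a2. The part of enterocyte RNA in these falls was not tested.

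The ATF4 target list held 34 genes other than transporters, of which 33 could be tested in Paneth cells and all 33 of these were higher, with a median log2 fold change of 1.5. The largest differences were those of Trib3 (52 and 39 against 2364 and 3533 UMIs, 6.65), Stc2 (5.01), Atf5 (4.37) and Gdf15 (4.26). In goblet cells 34 of 34 were higher, in remaining cells 30 of 33, in cycling cells 23 of 32 and in enterocytes 18 of 28. The shares of all genes that were higher in these classes were 11.9%, 10%, 3.94% and 1.68%. Of the other transporters, 6 of 25 were higher and 4 lower in goblet cells, where 11.9% and 11.2% of all genes were. In cycling cells 2 of 19 were higher, where 3.94% of all genes were, and none of 14 passed in enterocytes, where 974 genes had an unadjusted p under 0.05. The core TGATGNAA was in a promoter of 12 of the 28 ATF4 targets with an entry (42.9%), and in one of 4.51% of the 27025 symbols in the table. ATF4 binds this core, so its share among genes listed as ATF4 targets is not independent of how such genes come to be listed. The lists were put together with results of these data known, so their counts are descriptions.

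Likeness to other genes was measured as Pearson's r of log2(CPM + 1) over 24 sums of a class in a library, among 11250 genes. The sums share libraries and depth, and r is given as a description. The gene most like Slc6a9 was Atf4 itself (r = 0.932), and that most like Slc7a1 was Pck2 (0.947), the mitochondrial phosphoenolpyruvate carboxykinase. Slc6a19 was closest to Treh (0.978), the brush border trehalase, and to Pdzk1 (0.967), a scaffold of the brush border. Slc1a4 was closest to Habp2 (0.955) and Ly6e (0.944), Slc1a5 to Sil1 (0.968) and Krtcap2 (0.952), and Slc38a2 to Upb1 (0.873) and to Sars (0.873), a tRNA synthetase. The second for Slc6a9 was Fam104a (0.923) and for Slc7a1 Lmo4 (0.923). Slc38a1 went with Aen (0.917) and Clns1a (0.917), Slc43a1 with Focad (0.953) and Snd1 (0.928), Slc43a2 with Cltc (0.972) and Rfk (0.944), and Slc36a1 with Xpnpep2 (0.894) and Gucy2c (0.872). Among the transporters themselves r was highest for Slc1a5 with Slc38a1 (0.873), Slc1a4 with Slc1a5 (0.865) and Slc6a19 with Slc43a2 (0.859), and lowest for Slc38a1 with Slc6a19 (-0.482).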

How the data were processed

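The authors deposited raw UMI counts per gene and cell barcode for each library, made with Cell Ranger 2.1.1 against mm10 per the submitters' processing notes (10x Genomics 3′ kit). The counts were used unnormalized, and 0 columns were of unknown sample. Gene positions are those of GENCODE M21.

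Cells with under 20% alpha-defensin UMIs were gated by the share of marker UMIs, in the order tuft (0.1%), enteroendocrine (0.5%), goblet (5%), cycling (0.1%) and enterocyte (0.5%). These cuts were set from the distributions of the markers. UMIs were summed per class and library, and classes with at least 10 cells in every library were tested in R 4.3.3 by edgeR 4.0.16's quasi-likelihood method (filterByExpr, TMM, two-sided) at an adjusted p of 0.05. Differences between classes had library as a block. The script was tested on simulated data. Intervals are exact binomial (Clopper-Pearson). Doublets were kept. As an alternative, cells marked by Scrublet in scanpy 1.11.5 (0.8% per 1000 cells) or passing 2 gates were left out. Other alternatives were library size scaling, other filters, a replicate block, DESeq2 1.42.0, thinned cells, 1 lower UMI limit, stricter gates and each library left out. No alternative was run for the genotype differences in remaining or tuft cells.

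Named are all 10 transporters, Slc7a5 and Slc3a2, in each direction the 4 largest changes of each list in Paneth cells whose libraries do not overlap, and the 2 most like genes per transporter. The markers Cd3e, Cd3g, Cd8a, Ptprc, Lyz2, Xist and Ddx3y were named after their values were seen. The transporters and lists were chosen with earlier results of these data known.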

Additional observations from a re-analysis of the deposited data

Results flagged for a closer look

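The differences between the IEC-KO-labelled libraries and Slc7a5 fl/fl were unequal between cell classes for these transporters, by edgeR's test of class and genotype together. Between Paneth and goblet cells the log2 difference in Paneth cells minus that in goblet cells was -0.50 for Slc1a4 and 0.40 for Slc38a1. Between Paneth and cycling cells it was -0.91 for Slc1a4, 0.54 for Slc1a5, 0.57 for Slc38a1, -0.81 for Slc43a2 and 0.49 for Slc7a1. Neither difference between Paneth and goblet cells passed in thinned cells or with stricter gates. In thinned cells none of the positive differences between Paneth and cycling cells passed.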

How the results depend on the processing

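In Paneth cells the 6 higher transporters passed under all 14 alternatives except Slc38a2, which was lost in thinned cells. Scaling by library size left 1 lower transporter there and thinning 0, where 8 transporters were tested and Slc6a19 was not. The counts of all genes higher and lower were 8795 and 454 by library size, 1581 and 1372 in DESeq2, 669 and 659 in thinned cells and 1404 and 1258 with stricter gates. Goblet cells had 0 lower in DESeq2, thinned cells and with 1 lower UMI limit, where 481 of 11761, 422 of 9441 and 683 of 10398 genes were lower. Of the 6 higher ones 5 passed in DESeq2, with 1 lower limit and with stricter gates. All genes higher there were 655 of 11761, 865 of 10398 and 843 of 9906. Cycling cells had 1 higher when thinned, where 77 of 6240 genes were higher. They had 2 in DESeq2, with stricter gates or with at least 10 UMIs per library. All genes higher there were 127 of 8640, 148 of 9643 and 354 of 9022. Slc6a9 was not tested in thinned cycling cells or with at least 10 UMIs per library. Enterocytes had 0 higher with at least 10 UMIs per library, the replicate block, DESeq2, thinning, stricter gates or doublets left out. They had 2 with no filter, where 181 of 13620 genes were higher, and 5 with 1 lower limit, where 411 of 5579 were. That limit left 84 and 93 enterocytes in the fl/fl-labelled libraries and 21 and 40 in the IEC-KO-labelled ones. Slc1a4 was not tested in thinned enterocytes or with at least 10 UMIs per library, so its call was not lost there. The cells between the gates (chosen after seeing the data) had 2 higher in DESeq2, 0 thinned, 3 without doublets and 4 with the replicate block. All genes higher there were 292 of 7412, 167 of 5416, 532 of 9196 and 404 of 9902.

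By library size the difference of Paneth from goblet cells was larger for 8 transporters, where 67.4% of all genes were larger and 0.44% smaller. In thinned cells or stricter gates it was larger for 0. It was smaller for 0 by library size, thinned, with stricter gates or without doublets. With 1 lower limit it was smaller for 2, where 611 of 11775 genes were. The difference from cycling cells was larger for 0 when thinned. It was smaller for 0 by library size or stricter gates and for 1 when thinned, where 251 of 9163 genes were. Levels by library size (an alternative chosen after seeing the data) were higher and lower for 1 and 8 against goblet cells in both genotypes. Against cycling cells the counts were 1 and 6 then 2 and 4. Against enterocytes they were 1 and 5 then 2 and 4, where 1.61% then 3.97% of all genes were higher and 70.3% then 68.6% lower. Stricter gates gave 3 higher against goblet cells with the label Slc7a5 fl/fl, where 2356 of 11632 genes were higher.

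These log2 values turned sign. By library size, Slc43a1, Slc43a2 and Slc36a1 in Paneth cells were 0.49, 0.12 and 0.35, Slc43a1 between the gates 0.041, and the class difference of Slc1a4 from goblet cells 0.17. Levels of Slc43a2 were then -1.48 and -1.02 against goblet and -0.39 and -0.47 against cycling cells, and Slc6a19 -0.089 against goblet cells. With 1 lower limit, Slc6a19 and Slc43a1 in goblet cells were 0.16 and 0.043, and Slc38a2 and Slc43a2 in enterocytes 0.39 and 0.080. Thinned, Slc43a1 and Slc36a1 in goblet cells were 0.33 and 0.22, and Slc43a2 between the gates 0.32. With stricter gates, Slc43a1 in goblet cells was 0.15, Slc43a2 -0.062 in cycling cells and 0.012 in enterocytes, and Slc38a2 in enterocytes 0.030. With a library left out, Slc43a1 ran from -0.17 to 0.14 in goblet cells and -0.65 to 0.62 between the gates, Slc38a1 from -0.084 to 0.34 and Slc36a1 from -0.78 to 0.36 in cycling cells, and Slc38a2 from -0.29 to 0.066, Slc43a2 from -0.14 to 0.061 and Slc36a1 from -1.30 to 0.065 in enterocytes. Of these, Slc43a2 in Paneth cells, Slc36a1 in goblet cells, the class difference of Slc1a4 and 4 of the 5 levels had passed. Unthinned, shares of Paneth cells with a Slc1a4 UMI were 46.5, 44.5, 40.02 and 53.6%. The cause of these changes was not tested.

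Replicate numbers are shared only as numbers: deviations of same-numbered libraries correlated at -0.00326 to 0.0415 over genes. With the replicate block, 6 transporters were higher and 2 lower in Paneth cells, among 2570 higher and 2543 lower genes. The enterocyte, tuft and enteroendocrine sums rest on few cells.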

Other observations

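Enteroendocrine cells, the hormone-secreting cells of the epithelium, were too few for a test, with 11 and 5 cells in the fl/fl-labelled libraries and 80 and 61 in the IEC-KO-labelled ones. Slc6a19 had 0 and 3 UMIs in them against 15 and 17, and Slc1a5 had 9 and 2 against 64 and 57. On the scale joint to all classes Slc6a19 stood at 13.5 ± 19.1 and 20.9 ± 0.37 CPM (SD, n = 2), beside 25.1 and 16.0 in enterocytes, so that the control libraries of enteroendocrine cells were too far apart to place it.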
